A study of Mus musculus with 18 samples.

Results

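The levels of 10 genes of organic anion and bile transport were followed across 18 mouse liver RNA-seq libraries. They were chosen by name for their textbook role in hepatocytes, as those of the table's 58126 genes, 55487 of them with a symbol, that carry the symbols Slco1a1, Slco1a4, Slco1b2, Slco2b1, Slc10a1, Slc22a7, Abcb11, Abcc2, Abcc3 and Abcc4. All 10 were found, each once, and all 10 were among the 13872 genes tested, which reached 1 TPM in at least 3 libraries. TPM scales the reads of a gene by its length and then by the sum over all genes, so levels of different genes can be set side by side within a library.

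Hepatocytes take up bile salts, bilirubin, thyroid hormone and many drugs from the blood across the sinusoidal membrane and secrete them or their conjugates into bile across the canalicular membrane. Uptake runs through Slc10a1 (NTCP), which carries bile salts together with sodium, through the sodium-independent organic anion transporters of the Slco family (OATPs) and through the organic anion transporter Slc22a7 (OAT2). Export into bile uses the ATP-driven pumps Abcb11 (BSEP), for bile salts, and Abcc2 (MRP2), for bilirubin glucuronides and glutathione conjugates. Abcc3 (MRP3) and Abcc4 (MRP4) pump such compounds back into the blood and are known to increase when bile flow is blocked. In mouse liver Slco1a1 is known to be more abundant in males and Slco1a4 in females.

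The study compared livers of C57BL/6 mice with and without a liver-specific knockout (LKO) of Ftcd, an enzyme that links histidine breakdown to the folate pool, with and without DEN (diethylnitrosamine, a liver carcinogen). Livers of untreated WT littermates (3 libraries) and untreated LKO mice (3) were taken at 12 months of age. DEN was given once into the peritoneal cavity at 20 mg/kg when pups were 14 days old, and 12 months later 3 kinds of tissue were collected: nontumour liver of WT mice (6), nontumour liver of LKO mice (3) and tumours of LKO mice (3). The sources used here name neither the promoter that drives the deletion nor the sex of the mice, and do not say that replicates came from separate animals, so p-values measure the spread between these libraries. In bulk tissue, fewer cells of a type and less RNA per cell cannot be told apart.

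The libraries differed in ways that bear on every result. Ftcd stood at 0.10 to 3.16 TPM in the 9 LKO libraries and at 61.2 to 106 TPM in 6 of the 9 libraries labelled WT, but at 1.77 TPM in untreated WT replicate 3 and at 2.36 and 2.50 TPM in DEN WT replicates 1 and 2. Groups are named by their labels throughout, and these 3 libraries labelled WT are left out where a result rests on them. From Xist and 4 Y-linked genes, all 9 libraries labelled WT were XX, the 3 untreated LKO libraries were XY, and in each DEN LKO group replicate 1 was XX and replicates 2 and 3 were XY. In the untreated livers genotype and sex therefore cannot be told apart. In comparisons with DEN WT, where all libraries were XX, only the XX replicate 1 of each LKO group parts genotype from sex. The 13 mitochondrially encoded genes made up 4.2% to 38.3% of TPM, 5 hepatocyte markers summed to between 20541 and 107914 TPM in every library, and 6 bile duct markers summed to 5.96 to 179 TPM, with Cftr at 0 in untreated WT and at most 0.07 TPM elsewhere.

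A group of 3 genes, Slco1b2, Slco1a4 and Slco1a1, are protein-coding neighbours on chromosome 6 (mm10). Slco1b2 lies at chr6:141629518-141686646 on the plus strand, and Slco1a4 (chr6:141805440-141856199) and Slco1a1 (chr6:141907282-141946962) lie on the minus strand. A gap of 118793 bases separates Slco1b2 from Slco1a4, and 51082 bases separate Slco1a4 from Slco1a1. The Slco1a genes are similar in sequence, so reads could be shared among them and their TPM values are uncertain to that degree. Promoter sequences from RefSeq (GRCm38.p6), 250 bases before to 50 bases after a gene start, were matched for 8 of the 10 genes. Shown here are those of Slco1a1 and Slco1a4, the neighbours whose levels went opposite ways, and of Slc10a1 and Abcb11, the main uptake and export routes for bile salts. All are on the minus strand of the genome and are written 5′ to 3′, with motif matches in capitals.
Slco1a1, chr6:141946913-141947212: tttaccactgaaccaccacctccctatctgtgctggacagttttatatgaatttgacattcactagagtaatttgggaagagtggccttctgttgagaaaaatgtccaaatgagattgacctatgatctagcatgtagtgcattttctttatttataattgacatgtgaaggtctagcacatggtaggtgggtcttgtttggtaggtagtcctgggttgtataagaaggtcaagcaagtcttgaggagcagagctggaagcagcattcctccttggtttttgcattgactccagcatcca
Slco1a4, chr6:141856171-141856470: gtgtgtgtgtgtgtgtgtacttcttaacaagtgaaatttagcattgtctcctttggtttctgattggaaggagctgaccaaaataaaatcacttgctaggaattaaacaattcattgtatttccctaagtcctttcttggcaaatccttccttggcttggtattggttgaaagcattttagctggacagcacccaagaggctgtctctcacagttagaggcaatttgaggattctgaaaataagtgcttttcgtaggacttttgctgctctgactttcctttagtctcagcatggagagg
Slc10a1, chr12:80968656-80968955: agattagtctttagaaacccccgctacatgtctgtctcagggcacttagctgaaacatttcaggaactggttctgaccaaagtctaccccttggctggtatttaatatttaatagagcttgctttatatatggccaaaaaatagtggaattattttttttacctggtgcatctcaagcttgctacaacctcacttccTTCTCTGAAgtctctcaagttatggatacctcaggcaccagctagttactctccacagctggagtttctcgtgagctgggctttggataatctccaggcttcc
Abcb11, chr2:69342567-69342866: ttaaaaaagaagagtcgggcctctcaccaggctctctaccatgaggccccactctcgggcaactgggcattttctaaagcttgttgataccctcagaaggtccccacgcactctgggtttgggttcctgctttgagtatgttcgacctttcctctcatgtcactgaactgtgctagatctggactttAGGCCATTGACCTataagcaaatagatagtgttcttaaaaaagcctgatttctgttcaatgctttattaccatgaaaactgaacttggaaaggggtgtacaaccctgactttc

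Motifs were searched on both strands. The Abcb11 window held a match with 1 mismatch to AGGTCANTGACCT, an inverted repeat bound by the bile acid receptor FXR, starting 63 bases before the gene start, and 0.0822% of 32851 mouse promoters held such a match. Slco1b2 held another such match, 88 bases before its start. The Slc10a1 window held TTCNNNGAA, the motif of the growth hormone signal transducer STAT5, starting 53 bases before the gene start. Windows of Slco1b2, Slco2b1 and Abcc4 held this motif too, as did 8.30% of all promoters. No motif searched was found in the Slco1a1 and Slco1a4 windows. The antioxidant response core TGACNNNGC, in 12.4% of promoters, was found in the Abcc2 and Abcc4 windows, and the HNF1 motif GTTAATNATTAAC, in 0.00913%, in none of those matched. The motif matches are descriptions of sequence and were not tested for binding.

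Abcb11 and Slc10a1 were the most abundant of the 10 transporters. By the mean over 18 libraries the order of TPM was Abcb11 (182 ± 70.7, SD), Slc10a1 (156 ± 180), Abcc3 (66.2 ± 54.5), Abcc2 (59.0 ± 35.6), Slco1b2 (58.4 ± 61.7), Slco2b1 (28.7 ± 19.9), Slco1a4 (15.9 ± 10.3), Slc22a7 (13.0 ± 12.0), Slco1a1 (5.49 ± 10.2) and Abcc4 (1.53 ± 1.31). This is the order of the means, and the order within single libraries varied. Abcb11 was the highest of the 10 in 13 libraries, Slc10a1 in 4 and Abcc3 in 1, which was a tumour. The spread over libraries differed between the genes, since the highest library exceeded the lowest 5.04-fold for Abcb11, 37.0-fold for Slc10a1 and 3505-fold for Slco1a1.

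**Figure D1:**
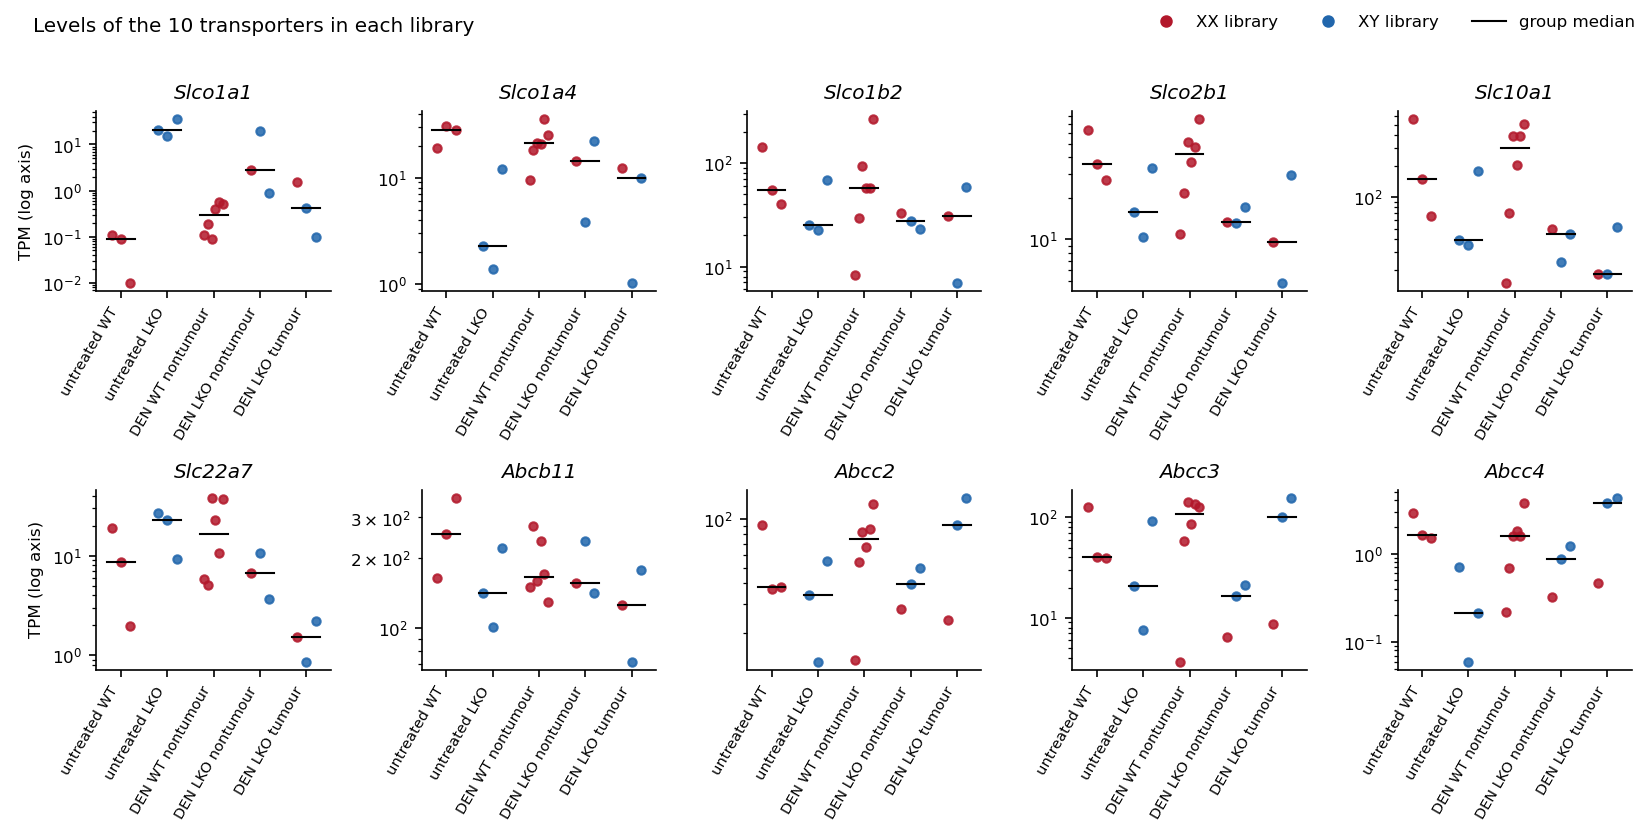
TPM (log axis) of each of the 10 transporters in the 18 libraries by group; each point is a library, red for XX and blue for XY, and the line is the group median. Slco1a1 lies at 15.3 to 35.1 TPM in untreated LKO and at 0.01 to 0.56 TPM in the 9 libraries labelled WT, while Abcb11 stays between 72.0 and 363 TPM in all libraries.

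Of the uptake transporters, Slco1a1 differed most between the untreated genotypes. This OATP carries bile salts and conjugated steroids. It stood at 0.11, 0.09 and 0.01 TPM in untreated WT replicates 1 to 3 and at 21.1, 15.3 and 35.1 TPM in untreated LKO replicates 1 to 3. The groups did not overlap, and every untreated LKO library also exceeded all 6 DEN WT libraries, which ran from 0.09 through a median of 0.29 to 0.56 TPM. On the scale of log2(TPM + 1), which understates the change of a gene near 0, Slco1a1 rose by 4.46 ± 0.60 (SE) in untreated LKO (limma, adjusted p = 0.000748). That is 4.78 above the median difference of all tested genes, which was -0.33. With a pseudocount of 0.1 in place of 1, the difference was 7.11 ± 0.92. In this comparison 0.173% of tested genes passed as higher and 0.26% as lower, and Slco1a1 was the 1 transporter of 10 that passed.

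Within the DEN LKO livers Slco1a1 was uneven. It stood at 2.78, 19.6 and 0.87 TPM in the nontumour replicates 1 to 3 and at 1.5, 0.41 and 0.10 TPM in the tumours. All 3 nontumour LKO libraries were above all 6 DEN WT libraries, but the difference of 2.02 ± 0.52 did not pass (limma, adjusted p = 0.189). The tumours overlapped both the DEN WT and the nontumour LKO libraries. Against untreated LKO, the DEN LKO nontumour level was lower by a log2 difference of -2.16 ± 0.60 that did not pass (limma, adjusted p = 0.361), with 1 library, replicate 2, inside the untreated range. Without that library the difference was -3.14 ± 0.42 and passed (limma, adjusted p = 0.00197). It was the highest of its group, so leaving it out widens the difference by construction. The nontumour libraries left were replicate 1, which was XX, and replicate 3, which was XY, against XY libraries alone.

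The Slco1a1 values followed the XX and XY libraries only in part. The XX libraries from LKO mice, nontumour replicate 1 and tumour replicate 1, held 2.78 and 1.5 TPM, above all 9 XX libraries labelled WT (0.01 to 0.56 TPM). The sources used here do not say whether both came from the same mouse. XY libraries ranged from 0.10 TPM in a tumour to 35.1 TPM in an untreated liver. With a term for XX or XY, whose size comes from the DEN LKO libraries alone, the untreated difference was 4.60 ± 0.89 (limma, adjusted p = 0.0469). The term cannot part sex from genotype in untreated liver, where all WT libraries were XX and all LKO libraries XY.

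Slco1a4, a close relative with broader use of organic anions and cardiac glycosides, ran the other way. It stood at 18.9, 30.7 and 27.9 TPM in untreated WT and at 2.26, 1.37 and 12.0 TPM in untreated LKO. The groups did not overlap, but the log2 difference of -2.50 ± 0.74 did not pass (limma, adjusted p = 0.368). Across tested genes 8.97% were wholly lower in untreated LKO and 2.45% wholly higher, so a gap between 3 libraries and 3 was common. With the XX or XY term, under the same limit as for Slco1a1, the difference was -1.47 ± 1.05 (limma, adjusted p = 0.318). DEN WT libraries ran from 9.48 through a median of 20.9 to 35.2 TPM, DEN LKO nontumour replicates 1 to 3 held 14.5, 3.81 and 21.9 TPM, and the tumours held 12.4, 1.03 and 10.0 TPM. These 3 groups overlapped.

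Taken as a pair, the Slco1a genes gave a ratio that does not depend on the library's scaling. Slco1a1 made up 0.0358% to 0.579% of the sum of both in untreated WT and 0.426% to 2.01% in DEN WT. It made up 90.3%, 91.8% and 74.5% in untreated LKO. In DEN LKO nontumour replicates 1 to 3 the share was 16.1%, 83.7% and 3.82%, and in the tumours 10.8%, 28.5% and 0.99%. The untreated LKO libraries and 1 DEN LKO nontumour library, an XY library, were thus the only ones with more Slco1a1 than Slco1a4. The other 3 XY libraries of the DEN LKO groups held more Slco1a4.

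**Figure D2:**
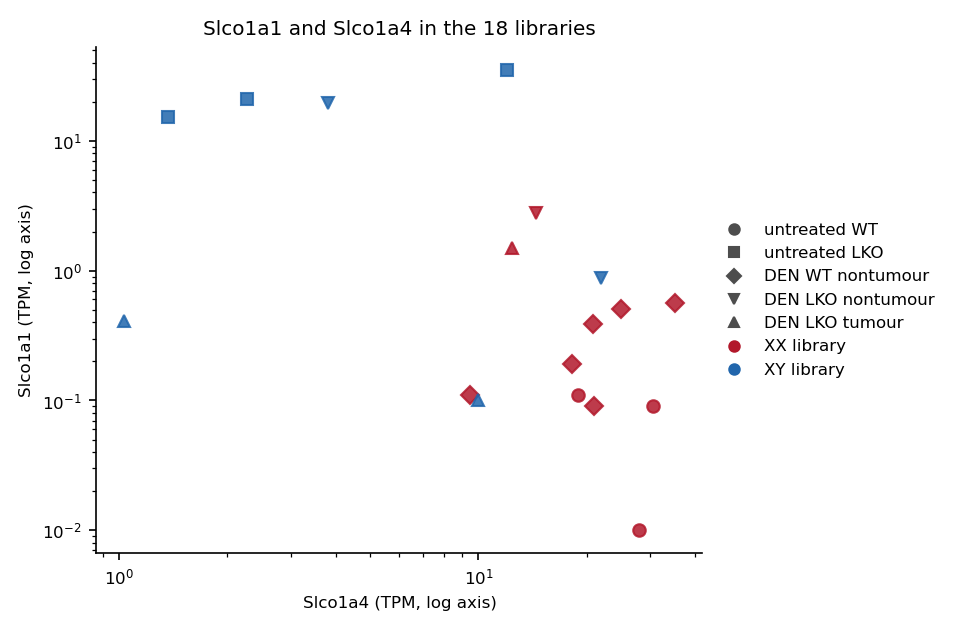
TPM of Slco1a1 against TPM of Slco1a4 (both log axes) in the 18 libraries, with the group as the symbol and XX or XY as the colour. The 3 untreated LKO libraries and DEN LKO nontumour replicate 2 sit at the top with 15.3 to 35.1 TPM of Slco1a1, and the 9 libraries labelled WT sit at the lower right.

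Sex-biased liver genes moved with this pair between the untreated genotypes, but not in every comparison. Of 10 genes known to be male-biased in mouse liver, 6 rose in untreated LKO and none fell. Of 12 known to be female-biased, 11 fell and none rose. Among all tested genes 0.173% rose and 0.26% fell. The median log2 differences were 5.0 and -5.99, against -0.33 over all tested genes. In DEN LKO nontumour against untreated LKO liver, all 10 male-biased genes were below 0 and all 12 female-biased above 0. The medians there were -2.15 and 2.19, against 0.12 over all genes, and 1 female-biased gene passed. In tumours against nontumour LKO liver Slco1a1 was at -1.74 ± 0.60. There 5 male-biased genes were above 0 and 5 below, with a median of 0.03. The female-biased median was -0.71, with 8 of 12 below 0, and Slco1a4 was at -0.83 ± 0.74. The median of all genes there was 0.23, and none passed. Against DEN WT liver the tumour medians were 1.36 and -4.22, with Slco1a1 at 0.28 and Slco1a4 at -1.66. In untreated LKO against WT, Cyp4a12a, a male-biased fatty acid hydroxylase, stood at 138 against 0.24 TPM (6.80 ± 0.81, limma, adjusted p = 0.000407). Cux2, a transcription factor known to be female-biased in mouse liver, stood at 0.0333 against 7.33 TPM (-3.01 ± 0.47; limma, adjusted p = 0.00289). Untreated LKO and WT also differ wholly in XX or XY, so the part of sex in the Slco1a pair cannot be told apart from that of genotype there.

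Slc10a1, Slco2b1 and Slco1b2 varied together. Slc10a1 lies at chr12:80953183-80968705 on the minus strand. Its level was 562, 151 and 65.6 TPM in untreated WT and 38.5, 35.0 and 181 TPM in untreated LKO. In DEN WT the libraries ran from 15.2 through a median of 295 to 506 TPM. DEN LKO nontumour replicates 1 to 3 held 49.3, 24.0 and 44.3 TPM, and the tumours 18.4, 18.3 and 52.3 TPM. The 6 DEN LKO libraries were thus all at 52.3 TPM or less, where 5 of the 6 DEN WT libraries held 71.4 TPM or more and DEN WT replicate 1 was the lowest of all 18.

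In the fit over all libraries no difference of Slc10a1 passed. The log2 difference was -1.49 ± 1.08 between untreated LKO and WT (limma, adjusted p = 0.831) and -2.08 ± 0.94 between the DEN nontumour livers (adjusted p = 0.373). Between LKO tumours and DEN WT liver it was -2.58 ± 0.94 (limma, adjusted p = 0.272). The DEN values changed with the libraries labelled WT that held little Ftcd. Those libraries were also the lowest of their groups in Slc10a1, at 65.6 TPM (untreated) and 15.2 and 71.4 TPM (DEN). Leaving them out thus raises the WT means. Without those 3, Slc10a1 was lower by -3.20 ± 0.63 in DEN LKO nontumour liver (limma, adjusted p = 0.0204) and by -3.71 ± 0.63 in tumours (adjusted p = 0.00833). Of all tested genes 5.65% passed as lower in the former fit and 2.25% in the latter. Without DEN WT replicate 1 alone, the tumour difference was -3.25 ± 0.74 (limma, adjusted p = 0.0389), where 0.836% of all genes passed as lower. All DEN WT libraries were XX, while replicates 2 and 3 of each DEN LKO group were XY. In the fit over all libraries no transporter passed in either comparison, with or without the XX or XY term. The term was not fitted with the low-Ftcd libraries left out, so it does not bear on the values that passed. With each library's mitochondrial share added to the fit, the nontumour difference was -0.29 ± 0.70 (limma, adjusted p = 0.946). The mitochondrial share was 24.1% ± 10.4 (SD, n = 3) in DEN LKO nontumour liver, 19.1% ± 10.5 (SD, n = 3) in tumours and 11.8% ± 13.1 (SD, n = 6) in DEN WT, and its part in these differences was not tested beyond that fit.

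Slco2b1 (chr7:99657804-99711340, minus strand), an OATP that carries sulfated steroids, was likewise highest in libraries labelled WT. It stood at 62.9, 35.6 and 27.1 TPM in untreated WT and at 15.8, 10.4 and 33.4 TPM in untreated LKO. DEN WT libraries ran from 11 through a median of 41.9 to 75.2 TPM, DEN LKO nontumour libraries held 13.3, 13.2 and 17.2 TPM, and the tumours 9.64, 4.84 and 29.4 TPM. The lowest DEN WT library, replicate 1, lay below all 3 nontumour LKO libraries, so the groups overlapped. The log2 difference was -1.52 ± 0.58 between tumours and DEN WT liver (limma, adjusted p = 0.298), and -2.07 ± 0.52 with the low-Ftcd libraries labelled WT left out (adjusted p = 0.0456). It also passed after median-ratio scaling of the libraries, at -1.49 ± 0.35 (limma, adjusted p = 0.0416). Of all tested genes 2.25% passed as lower without the low-Ftcd libraries and 1.22% after the scaling, against 0.238% with neither change. The DEN WT libraries left out, at 11 and 21.7 TPM, were the lowest of their group.

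Slco1b2, the mouse counterpart of the human liver OATP1B transporters, carries bile salts, bilirubin conjugates and statins. It held 145, 54.7 and 39.9 TPM in untreated WT and 25.1, 22.4 and 68.3 TPM in untreated LKO. In DEN WT the libraries ran from 8.35 through a median of 57.6 to 267 TPM, the widest group of all for this gene. DEN LKO nontumour libraries were close together at 33.3, 27.6 and 22.9 TPM, and the tumours held 30.5, 6.98 and 59.4 TPM. Groups overlapped in every comparison, and the log2 differences from -1.13 to -0.21 did not pass in any of them. Over the 18 libraries on log2(TPM + 1), Pearson's r was 0.94 between Slco2b1 and Slc10a1, 0.92 between Slco1b2 and Slco2b1 and 0.88 between Slco1b2 and Slc10a1. The points share each library's total and mitochondrial share, and the values are given as a description.

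Slc22a7 (chr17:46432183-46438457, minus strand), which carries organic anions such as prostaglandins and orotic acid, was lowest in the tumours. It held 1.51, 0.86 and 2.20 TPM in the tumours, 6.64, 10.8 and 3.69 TPM in DEN LKO nontumour liver and 5.02 through a median of 16.7 to 37.9 TPM in DEN WT liver. All 3 tumours were below all 3 nontumour LKO and all 6 DEN WT libraries. Untreated WT replicates 1 to 3 held 19.0, 8.66 and 1.95 TPM and untreated LKO 27.1, 22.6 and 9.25 TPM, and these groups overlapped. The low untreated WT library, replicate 3, was one of those with little Ftcd.

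The log2 difference of Slc22a7 between tumours and DEN WT liver was -2.70 ± 0.66 and missed the threshold (limma, adjusted p = 0.0768). In that comparison 1.14% of tested genes were wholly lower and 2.05% wholly higher in tumours, and 0.238% and 0.26% passed in those directions. The difference passed after median-ratio scaling of the libraries (-2.61 ± 0.58; limma, adjusted p = 0.0318), after quantile normalization (-2.69 ± 0.56; adjusted p = 0.0280) and with the low-Ftcd libraries labelled WT left out (-3.36 ± 0.51; adjusted p = 0.00477). Without DEN WT replicate 1 alone it was -2.95 ± 0.65 (limma, adjusted p = 0.0341). In these fits, in that order, 1.22%, 1.00%, 2.25% and 0.836% of all genes passed as lower. Against nontumour LKO liver the tumour difference was -1.61 ± 0.76 (limma, adjusted p = 0.943), in a comparison where 2.02% of genes were wholly lower and 1.81% wholly higher. In DEN LKO nontumour against DEN WT liver it was -1.10 ± 0.66 (limma, adjusted p = 0.443), and -1.76 ± 0.51 with the low-Ftcd libraries labelled WT left out (adjusted p = 0.0477). With those left out 5.65% of all genes passed as lower. With the mitochondrial share in the fit the nontumour difference was -0.29 ± 0.67 (limma, adjusted p = 0.940). The 4 markers of dividing cells summed to 4.31, 9.45 and 56.7 TPM in the tumours against 1.24 to 6.11 TPM in nontumour LKO liver, and their part in the Slc22a7 levels was not tested.

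Of the pumps that export into bile, Abcb11 (chr2:69238282-69342616, minus strand) was the most even of the 10 transporters. It held 165, 256 and 363 TPM in untreated WT, 141, 101 and 222 TPM in untreated LKO, 156, 237 and 142 TPM in DEN LKO nontumour liver and 126, 72.0 and 178 TPM in tumours. DEN WT libraries ran from 129.6 through a median of 166 to 276 TPM. The groups overlapped in every comparison. Its log2 differences were between -0.75 and 0.24 and none passed. Between the DEN nontumour genotypes the difference was -0.06 ± 0.40 with a 95% interval from -0.91 to 0.79, which does not show equal levels.

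Abcb11 exceeded Slc10a1 in every LKO library. The ratio of Abcb11 to Slc10a1 was 0.294, 1.70 and 5.54 in untreated WT and 3.67, 2.89 and 1.23 in untreated LKO. In DEN LKO nontumour libraries it was 3.18, 9.85 and 3.20, and in tumours 6.85, 3.92 and 3.41. It was below those values in 4 of 6 DEN WT libraries, at 0.256 to 1.17, and stood at 3.86 and 9.94 in DEN WT replicates 2 and 1, the libraries labelled WT with little Ftcd. The summed TPM of the 6 uptake genes was 110 ± 10.4 (SD, n = 3) in DEN LKO nontumour liver and 431 ± 318 (SD, n = 6) in DEN WT liver. The canalicular sum of Abcb11 and Abcc2 was 218 ± 51.3 and 259 ± 57.1 TPM in the same groups.

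Abcc2 (chr19:43782192-43840740, plus strand) held 91.0, 36.9 and 38.1 TPM in untreated WT and 34.0, 13.3 and 55.1 TPM in untreated LKO. In DEN WT the libraries ran from 13.6 through a median of 74.9 to 123 TPM, DEN LKO nontumour libraries held 28.0, 40.0 and 49.7 TPM, and the tumours 23.8, 91.8 and 133 TPM. Tumours 2 and 3 were thus above all nontumour LKO libraries and tumour 1 below them. None of its log2 differences, from -0.76 to 0.79, passed.

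The pumps into blood, Abcc3 (chr11:94343295-94392997, minus strand) and Abcc4 (chr14:118482692-118706219, minus strand), split the tumours in the same way. Abcc3 held 8.61, 101 and 155 TPM in tumours 1 to 3 and 6.39, 16.4 and 21.1 TPM in nontumour LKO liver. In untreated WT it held 127, 40.6 and 39.4 TPM, in untreated LKO 20.97, 7.61 and 92.9 TPM, and in DEN WT liver 3.68 through a median of 107 to 142 TPM. Tumour 2 lay just under the DEN WT median, tumour 3 above all 6 DEN WT libraries, and tumour 1, the XX tumour, near the bottom of their range.

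No difference of Abcc3 passed in the fit over all libraries. The log2 difference was 1.92 ± 1.21 between tumours and nontumour LKO liver (limma, adjusted p = 0.943). Between the DEN nontumour genotypes it was -2.15 ± 1.05 (limma, adjusted p = 0.385), and -3.11 ± 0.89 with the low-Ftcd libraries labelled WT left out (adjusted p = 0.0456). With those left out 5.65% of all genes passed as lower. With the mitochondrial share in the fit the latter comparison gave 0.05 ± 0.66 (limma, adjusted p = 0.991), and with the XX or XY term -3.86 ± 1.23 (adjusted p = 0.178). The same term moved Abcc2 there from -0.63 to -1.57 and Abcc4 from -0.43 to -1.22, neither of which passed. Within the 6 DEN WT libraries Abcc3 was lower where the mitochondrial share was higher, with Pearson's r of -0.95 (exact permutation p = 0.0417) and Spearman's rho of -0.83 (exact permutation p = 0.0583). After adjustment over the 10 transporters the permutation p was 0.147 for r and 0.583 for rho. Without the pair of libraries farthest from the median share r was -0.45, so the relation rested on them. Pearson's r was negative for every other transporter too, from -0.90 for Abcc2 to -0.16 for Abcb11.

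Abcc4, which exports bile salts together with glutathione, was scarce. It held 2.92, 1.61 and 1.5 TPM in untreated WT and 0.71, 0.06 and 0.21 TPM in untreated LKO. The groups did not overlap, where 8.97% of all tested genes were wholly lower in untreated LKO. The log2 difference of -1.18 ± 0.49 did not pass (limma, adjusted p = 0.831). DEN WT libraries ran from 0.22 through a median of 1.58 to 3.72 TPM, DEN LKO nontumour libraries held 0.32, 0.88 and 1.23 TPM, and the tumours 0.47, 3.74 and 4.24 TPM. As for Abcc2 and Abcc3, tumours 2 and 3 were above all nontumour LKO libraries and tumour 1 was not. Over the 18 libraries Pearson's r was 0.93 between Abcc2 and Abcc3 and 0.85 between Abcc2 and Abcc4, a description under the same limits as above.

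The ratio of Abcc3 to Slc10a1 set tumours 2 and 3 apart from the other libraries. It was 0.469, 5.51 and 2.97 in tumours 1 to 3. In the 15 other libraries it ran from 0.13 to 0.819, the highest of them in DEN WT replicate 2. Tumours 2 and 3 were the 2 libraries of 18 in which the basolateral exporter was more abundant than the sodium-dependent bile salt carrier. With 1 tumour of 3 inside the range of the other libraries, the tumours did not all share this pattern. Tumour 1 also had a mitochondrial share of 30.8%, against 16.0% and 10.4% in tumours 2 and 3. Its hepatocyte markers summed to 27934 TPM, against 77962 and 44571 TPM. Tumour 1 was XX and tumours 2 and 3 were XY, so the split cannot be told apart from sex. The part of the mitochondrial share and of the hepatocyte markers in the split was not tested.

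**Figure D3:**
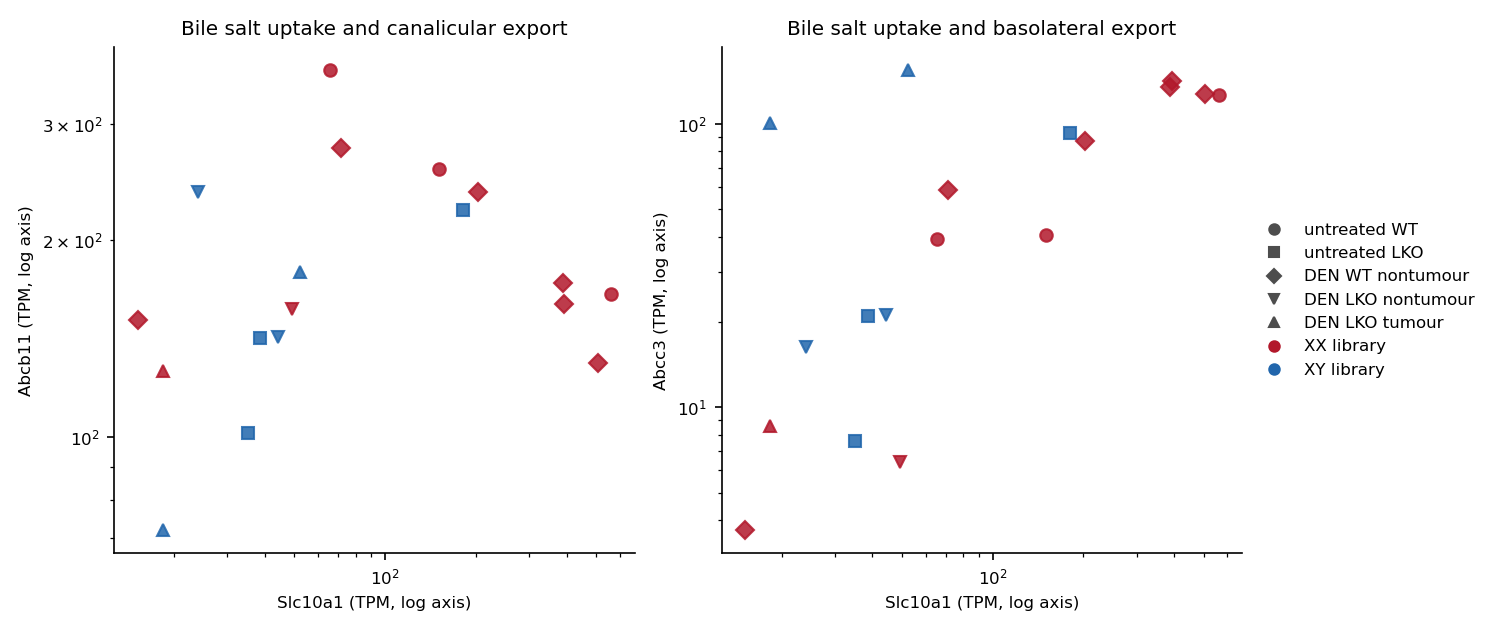
TPM of Abcb11 (left) and Abcc3 (right) against TPM of Slc10a1 (log axes) in the 18 libraries, with the group as the symbol and XX or XY as the colour. Abcb11 spans 5.04-fold while Slc10a1 spans 37.0-fold, and on the right tumours 2 and 3, at 101 and 155 TPM of Abcc3, are the libraries with more Abcc3 than Slc10a1, by ratios of 5.51 and 2.97.

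Counted over the 10 transporters, 1 rose and none fell in untreated LKO against WT, and 3 were past an unadjusted p of 0.05, beside 576 of all 13872 genes. Among all genes 0.173% passed as higher and 0.26% as lower. Of the 10 log2 differences 8 were below 0, with a median of -1.05 against -0.33 over all tested genes. After median-ratio scaling, which moved the median of all genes to 0.00, the same number was below 0 and the members' median was -0.56. With the mitochondrial share in the fit 5 were below 0 and the median was 0.00.

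In DEN LKO nontumour against DEN WT liver none of the 10 passed in the limma fit and 2 were past an unadjusted p of 0.05, beside 1811 of 13872 genes. The share of all genes that passed was 0.0288% in each direction, and 2.33% were wholly higher and 1.73% wholly lower. Slco1a1 was wholly higher and the other 9 overlapped. The differences of 9 transporters were below 0, with a median of -0.87 against -0.19 over all genes. The 5 hepatocyte markers had a median of -0.73 in this comparison, 4 of them below 0, and of -0.53 in untreated LKO, also 4 below 0. Their median was -0.41 in tumours against nontumour LKO liver and -0.87 in tumours against DEN WT liver, and none passed in limma. Alb, like 8.97% of all tested genes, was wholly lower in untreated LKO, at 11478 against 27381 TPM (-1.37 ± 0.65; limma, adjusted p = 0.831). The part of these markers in the transporter levels was not tested. Of the transporters, 8 were below 0 after median-ratio scaling. With the mitochondrial share in the fit the count was 5. Without the low-Ftcd libraries labelled WT, Slc10a1, Slc22a7 and Abcc3 fell, in a fit where 5.65% of all genes did. DEN WT replicates 1 and 2, left out there, were the lowest DEN WT libraries for each of these genes.

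In tumours none of the 10 passed against nontumour LKO liver or against DEN WT liver in limma, with 2 and 4 past an unadjusted p of 0.05, beside 380 and 1461 genes. No gene passed in the former comparison (0%). The median difference of the 10 was -0.41 against 0.23 over all genes in the former and -0.87 against 0.04 in the latter, and 7 of 10 were below 0 in each. In the former the 6 uptake genes and Abcb11 were below 0 and the Abcc genes above it. Tumour 2 decided this count, since without it 4 of 10 were below 0 and the median was 0.12. When the low-Ftcd libraries labelled WT were left out, Slco2b1, Slc10a1 and Slc22a7 fell against DEN WT liver, in a fit where 2.25% of all genes did. The comparisons with tumours share libraries with each other, and those with DEN WT share all 6 of its libraries.

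No transporter passed between the DEN and untreated livers labelled WT. Between DEN WT and untreated WT all 10 overlapped, no log2 difference exceeded 0.95 in size (Slc22a7, 0.95 ± 0.66), and none was past an unadjusted p of 0.05, beside 95 of all genes in limma. No gene passed at all, 0.49% were wholly higher and 0.18% wholly lower. In LKO nontumour liver none of the 10 passed against untreated LKO, and Slco1a1 was past an unadjusted p of 0.05, beside 827 genes. There 0.036% of genes passed as higher and 0.0288% as lower, and 9.86% were wholly higher and 2.46% wholly lower, none of them among the 10. The genotype effect after DEN minus that in untreated livers was -2.44 ± 0.79 for Slco1a1 and -2.29 ± 1.01 for Slc22a7 (limma, adjusted p = 1.0 for both), and no gene passed it. Without DEN LKO nontumour replicate 2 the Slco1a1 value was -3.42 ± 0.54 and passed (limma, adjusted p = 0.0131). That library was the highest of its group in Slco1a1, so leaving it out lowers the value by construction.

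**Figure D4:**
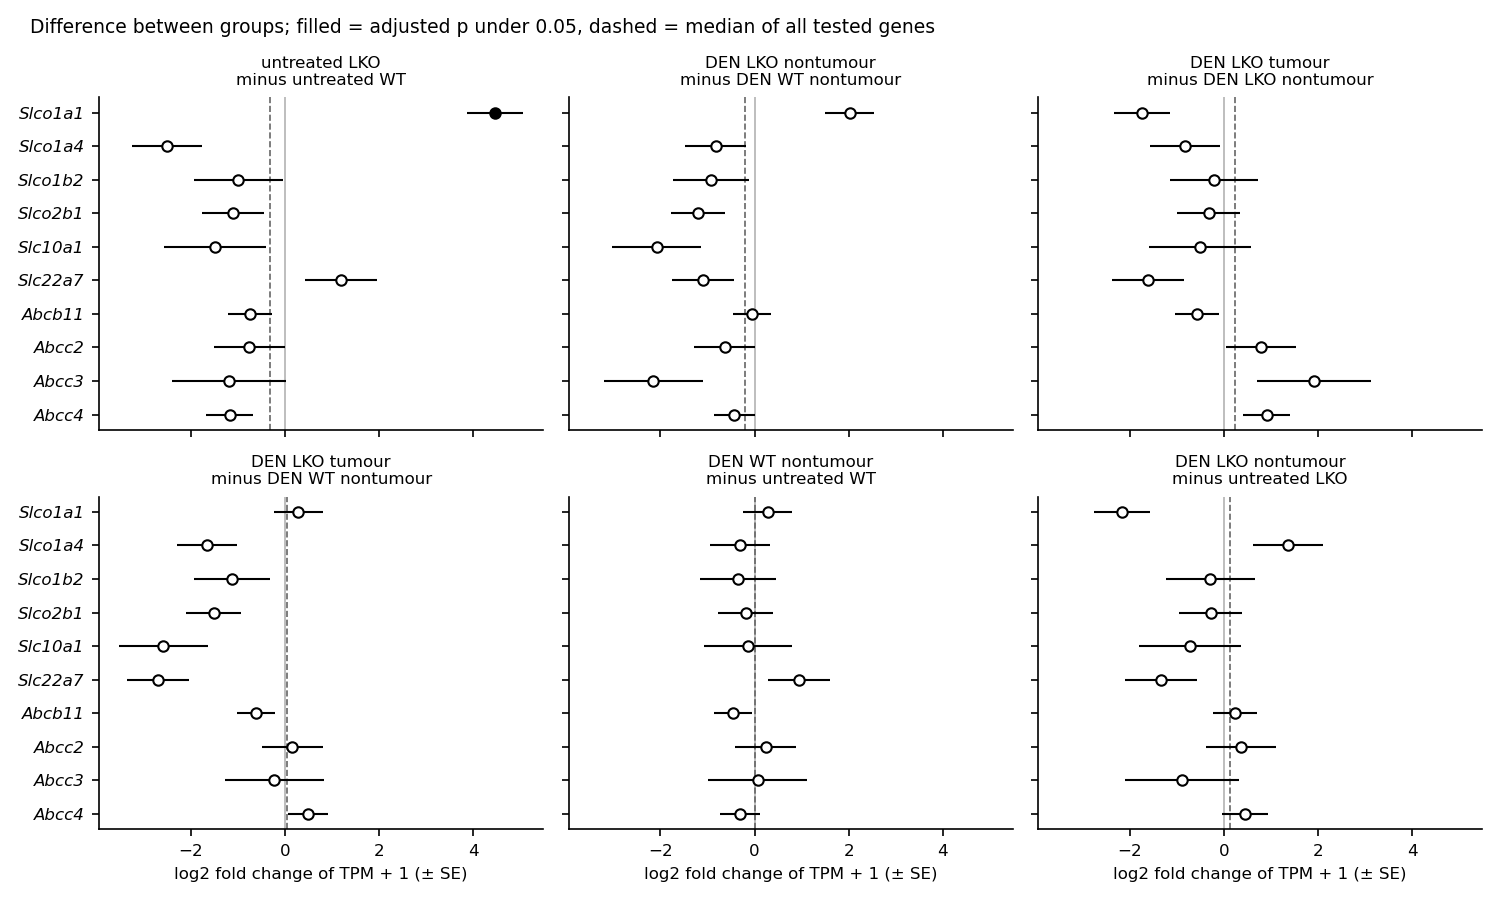
Log2 difference of TPM + 1 with its standard error for the 10 transporters in the 6 comparisons; filled points passed at an adjusted p under 0.05, and the dashed line is the median of all tested genes. Slco1a1 in untreated LKO, at 4.46, is the filled point.

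**Figure D5:**
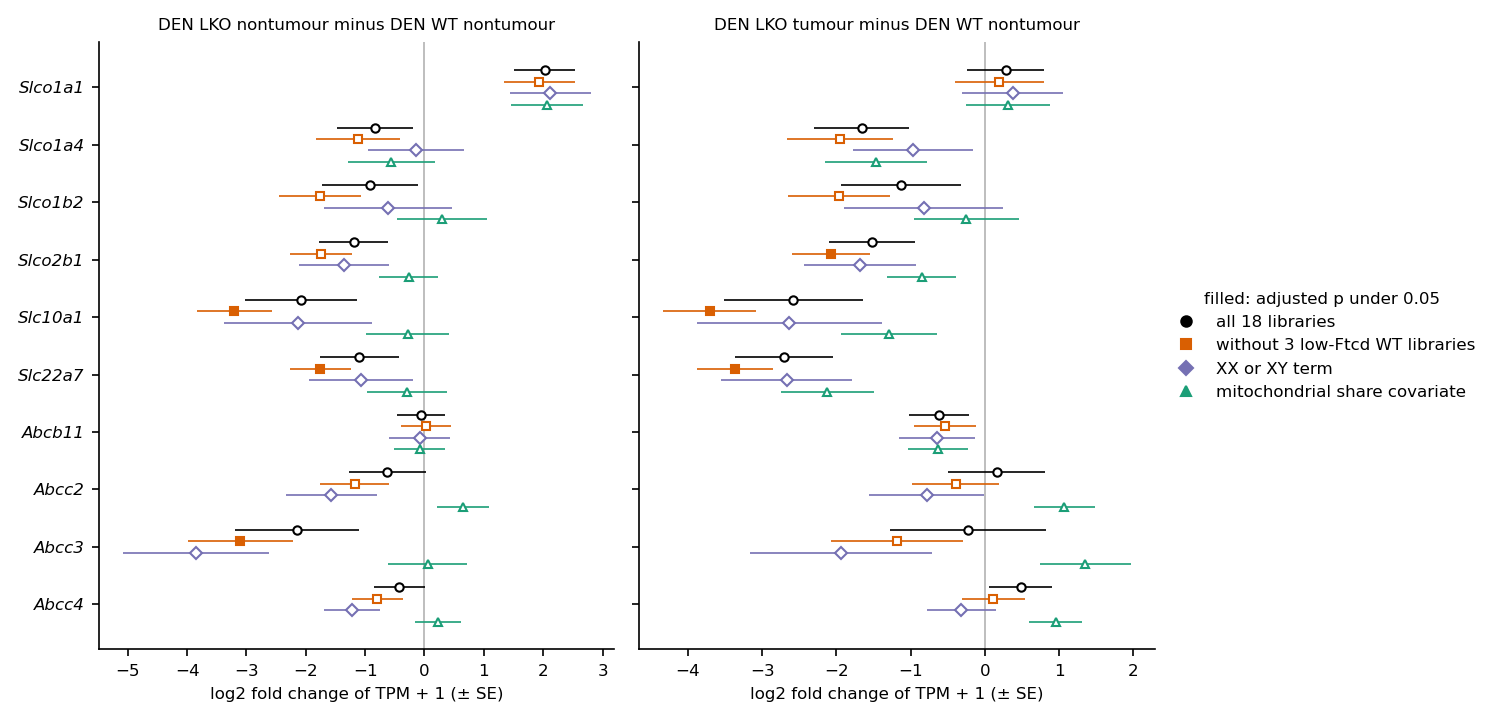
Log2 difference of TPM + 1 with its standard error for the 10 transporters in DEN LKO nontumour liver (left) and LKO tumours (right) against DEN WT liver, under the fit of all 18 libraries and under 3 alternatives. Points are filled where the adjusted p was under 0.05: Slc10a1, Slc22a7 and Abcc3 on the left and Slco2b1, Slc10a1 and Slc22a7 on the right, all without the low-Ftcd libraries labelled WT.

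Other transporters of the same membranes mostly stayed under the threshold. Of 20 further uptake transporters 17 were tested, and Slc22a27, an organic anion transporter of the Slc22 family, fell in untreated LKO (0.693 against 22.3 TPM, -3.78 ± 0.78; limma, adjusted p = 0.0330). Its relative Slc22a28 stood at 1.92 against 0.107 TPM and missed the threshold (1.35 ± 0.30; limma, adjusted p = 0.0581). The median log2 difference of the 17 was -0.86 in untreated LKO and -0.62 between the DEN nontumour genotypes, against -0.33 and -0.19 over all genes. None of 6 tested canalicular and 5 tested basolateral transporters passed in any comparison. The bile salt exporter subunit Slc51b ran from 0.42 to 71.7 TPM in the tumours, where 1 tumour set the group's mean, and from 0.44 to 4.34 TPM in nontumour LKO liver (1.31 ± 0.91; limma, adjusted p = 0.943).

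The genes most like each transporter, by Pearson's r over 18 libraries on log2(TPM + 1), were taken as the 3 highest of all tested genes. The libraries of all groups were pooled, so differences between groups and in mitochondrial share enter r, which is given as a description. Gtpbp4-ps1 (0 to 6.25 TPM) and Mpp4 (0.61 to 2.99 TPM) were scarce. For Slco1a1 they were the male-biased Hsd3b5 (r = 0.97), Gtpbp4-ps1 (0.94) and the male-biased Cyp4a12a (0.93), and for Slco1a4 Cyp2c38 (0.94), Slc22a27 (0.92) and Hamp2 (0.89). Dmgdh, a choline breakdown enzyme of mitochondria, was among the 3 most like both Slco2b1 (0.97) and Slc10a1 (0.96), beside Stard5 (0.98) and Cyp2c29 (0.97) for Slco2b1 and Ugt3a2 (0.96) and Ahcy (0.96) for Slc10a1. For Slco1b2 they were Hpgd (0.97), Nat8f2 (0.95) and Abhd15 (0.94), and for Slc22a7 Serpina3k (0.88), Ces3a (0.85) and Sult5a1 (0.85). Igf1, the growth hormone-dependent growth factor, was most like Abcb11 (0.86), followed by Mpp4 (0.79) and an unnamed transcript (0.79). Abcc2 was most like Myo1e (0.97), Cd151 (0.97) and Hnrnpd (0.96), Abcc3 most like Vps25, Tmub2 and Maged1 (0.97 each), and Abcc4 most like Pigh (0.94), Naglu (0.91) and Mmp14 (0.90).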

How the data were processed

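RNA sequencing of 18 mouse liver libraries gave 1 gene table in TPM, deposited by the authors. The submitters' processing notes name mm10 and the tools fastp, HISAT and RSEM without versions or settings. Libraries were made with a TruSeq kit from TRIzol-extracted RNA, per the labels' protocols. TPM keeps no read counts, so the depth is unknown, no counting interval was computed, and abundant transcripts of a library lower the others.

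Identifiers were looked up in GENCODE M21, where 94.9% of 58126 were found. Values were taken as log2(TPM + 1). A model of 5 group means over the 18 libraries, with an intensity trend and 13 residual degrees of freedom, was fitted in limma 3.58.1 (R 4.3.3) for the 13872 genes that reached 1 TPM in at least 3 libraries. The 6 comparisons and the difference of genotype effects were tested 2-sided and adjusted by Benjamini-Hochberg over all tested genes at 0.05. Tested on simulated data for the untreated comparison (13872 genes, 50 changed per size), the fit recovered 0% of log2 changes of 1, 36% of 2, 74% of 3 and 84% of 4. Standard errors and the 95% interval come from the same fit, and group values are means ± SD. Tables, correlations with exact permutation tests, sequences and figures were made with Python 3.11.15, pandas 2.3.3, numpy 2.4.6, scipy 1.17.1 and matplotlib 3.10.9.

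The 10 transporters were named in every comparison. From 20 other lists (166 of 167 genes matched, the transporters included), the rule named genes that passed, or else up to 2 with the largest difference, and for each transporter the 3 genes with the highest Pearson's r. The members and lists were chosen with earlier results of these data known. Alternatives were a pseudocount of 0.1, no filter, median-ratio and quantile scaling, leaving out mitochondrially encoded genes, a fit of the compared groups alone, a replicate block, a term for XX or XY, the mitochondrial share as a covariate, leaving out 3 libraries labelled WT with under 5 TPM of Ftcd, and leaving out each library. No pair of libraries was identical (Pearson's r from 0.716 to 0.96).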

Additional observations from a re-analysis of the deposited data

Results flagged for a closer look

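Within the 6 DEN WT libraries, each of the 10 transporters and each of their sums, shares and ratios was checked for a library far from the others. Dixon's test was used at the 95% level (critical value 0.625 for 6 libraries), which picks out about 1 group in 20 by chance. With that many measures checked, a flag by chance is likely. Both ratios flagged below have Slc10a1 as the denominator, so they are not independent. Slco1b2 in DEN WT replicate 6 stood at 266.55 TPM, where the other 5 libraries ran from 8.35 to 95.2 TPM. The ratio of Abcb11 to Slc10a1 in DEN WT replicate 1 was 9.94, against 0.256 to 3.86 in the other 5, and that library had the highest mitochondrial share of the 18, 38.3%. The ratio of Abcc3 to Slc10a1 in DEN WT replicate 2 was 0.819, against 0.243 to 0.428 in the other 5, and that library held 2.50 TPM of Ftcd. What set these libraries apart was not tested.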

How the results depend on the processing

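Over 28 alternative settings, 1280 differences of single transporters were recomputed. None that passed changed direction, 13 came to pass, 1 no longer passed, and 81 changed sign where neither value passed, 10 of them with the mitochondrial share in the fit. The count of transporters that passed changed in 8 repeats and stayed in 120. By the correlation of their deviations from group means (from -0.63 to 0.61), no comparison had same-numbered libraries above 0.1 in every pair. The values were 0.35, 0.30 and -0.03 for LKO tumours and nontumour liver, whose same-numbered libraries matched in XX or XY. So few pairs cannot show whether such libraries came from the same mouse. The replicate block is given here only. With it 0 of 10 passed in untreated LKO against WT, where Slco1a1 had 4.46 ± 0.50 (limma, adjusted p = 0.0800), and 0 passed in the other 5 comparisons. Without the low-Ftcd libraries labelled WT, 3 passed in DEN LKO nontumour and 3 in tumours against DEN WT, where none had. The latter count was 2 after median-ratio scaling, 1 after quantile normalization and from 0 to 2 when leaving out 1 library at a time, the 2 without DEN WT replicate 1. Leaving out 1 library gave counts from 0 to 1 in DEN LKO nontumour against untreated LKO and for the difference of genotype effects, the 1 being Slco1a1 without DEN LKO nontumour replicate 2. Slco1a1 in untreated LKO ran from 4.15 to 4.72 when leaving out 1 library. Genes that passed there, 24 higher and 36 lower, were 56 and 40 after median-ratio scaling and 40 and 40 after quantile normalization. In tumours against DEN WT liver 36 higher and 33 lower became 138 and 169, and 95 and 139. The cause of these changes was not tested. TPM keeps no depth, so the precision of levels near 0, such as Slco1a1 and Abcc4, is unknown.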

Other observations

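Genes of bile acid synthesis, regulation and anchoring were measured beside the transporters. Of 13 bile acid synthesis and conjugation genes, none passed in any of the 6 comparisons, in limma. In tumours against DEN WT liver all 13 log2 differences were below 0, with a median of -0.98 against 0.04 over all genes. Slc27a5, which joins bile acids to coenzyme A before conjugation, had means of 63.2 and 359 TPM there (-2.24 ± 0.62; limma, adjusted p = 0.131). Of 16 transcriptional regulators of transport, only Cux2, given above, passed in untreated LKO and none passed in the other 5 comparisons. Nr0b2 (SHP), the FXR-induced repressor of bile acid synthesis, stood at 6.04 TPM in DEN LKO nontumour liver, 25.9 TPM in DEN WT liver and 17.4 TPM in untreated LKO liver on average. It was wholly lower in DEN LKO nontumour than in both (limma, adjusted p = 0.291 and 0.864), where 1.73% and 2.46% of all tested genes were. Of the 16 regulators, 1 was wholly lower in the former comparison and 2 in the latter. Pdzk1, a scaffold protein that anchors organic anion transporters at the membrane, was wholly lower in DEN LKO nontumour than in DEN WT liver, at 4.95 against 25.8 TPM (-2.06 ± 0.59; limma, adjusted p = 0.269). It was the 1 such gene of 7 tested for scaffolds and trafficking, beside 1.73% of all tested genes. Gsta1, a glutathione transferase, ran from 9.9 to 694 TPM in tumours, the lowest within the DEN WT range of 1.56 to 48.8 TPM (4.33 ± 1.12; limma, adjusted p = 0.103).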
